A study of Mus musculus with 17 samples.

Results

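Heat shock proteins and DnaJ proteins were described in polyA RNA from male FVB/N mice, taken from the frontal cortex. The set was defined by gene symbol and level, and it was chosen with earlier results of these data known. It held protein-coding genes of the GENCODE M21 annotation whose symbol starts with Hspa, Hspb, Hspd, Hspe, Hsph, Hsp90 or Dnaj. They also had to reach 0.5 FPKM or more in 3 or more of the 16 distinct libraries. FPKM is the number of fragments per kilobase of transcript, scaled to the size of the library. Of 74 protein-coding genes with these prefixes 73 had a value, and 66 of them passed the level filter, out of 19186 genes tested and 46073 genes in the files. Hspa14 was not matched to a gene of the files. The 7 genes below the filter (Dnajb7, Dnajb8, Dnajc5b, Dnajc5g, Dnajc22, Hspb7 and Hspb9) reached 0.5 FPKM in 0 of 16 libraries, the highest single value being 0.336 FPKM for Hspb9. The members closest to the filter on its inner side were Dnajb13, at or above 0.5 FPKM in 6 libraries, Hspb2 in 10 and Hspb3 in 14, and 63 members were above it in all 16.

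The 3 groups of mice below were compared. The Ct group (6 libraries) had the genotype CamK alone. The labels do not spell the driver out; CamK drivers of this kind use a promoter active in forebrain excitatory neurons to make a tetracycline-controlled transactivator. The dTg group (genotype dTg-211, 6 libraries used) carried that driver and a transgene from which the transactivator switches on the microRNA miR-211. The dTgDox group (3 libraries) had the dTg-211 genotype and received doxycycline, which turns such a transgene off, for 4 days. Ct mice given doxycycline were not part of the groups analysed, so an effect of the drug and an effect of switching the transgene off cannot be told apart. The labels give no ages or litters for single libraries, so the p-values measure the spread between these libraries, whatever its source. A further file, labelled NTg (genotype PTRE-miR-211 without the CamK driver), held the same values as dTg replicate 1 for all 46073 genes, 24415 of them above 0. That library had a summed level of 10 cerebellar marker genes of 3361 FPKM, against at most 141 FPKM in any other library, and it was kept out of the main comparisons.

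Heat shock proteins are molecular chaperones. Hsp70 proteins (the Hspa genes) bind exposed stretches of unfolded protein in a cycle driven by ATP, DnaJ proteins deliver clients to them and start ATP hydrolysis, and Hsph1 and Hspa4 act as exchange factors that release the client again. Hsp90 proteins act later on nearly folded clients, the chaperonin pair Hspd1 and Hspe1 folds proteins inside mitochondria, and small heat shock proteins (Hspb) hold unfolded proteins without ATP. Neurons carry large amounts of the constitutive forms, among them Hspa8 with its synaptic partners Dnajc5 and Dnajc6, which serve vesicle fusion and the uncoating of clathrin. Heat or unfolded protein in the cytosol releases the transcription factor Hsf1, which binds heat shock elements, while unfolded protein in the endoplasmic reticulum (ER) induces Hspa5 and its partners through ER stress elements. By the main place of their protein 39 members were classed as cytosolic or nuclear, 14 as ER, 10 as mitochondrial, and 3 (Hspb11, Hspbap1 and Dnajc13) as other.

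The control sequences of the inducible members were read from the RefSeq promoter table (GRCm38.p6), which holds windows from 250 bases before to 50 bases after a start for 54 of the 66 members. Hspa8, Hsp90aa1 and Hsp90ab1 are among the members without a window, so they were not searched. A heat shock element was searched on both strands as 3 adjoining units of 5 bases in alternating direction, NGAANNTTCNNGAAN or NTTCNNGAANNTTCN. Under this rule 178 of 27025 genes (0.659%) and 4 of 54 members (7.41%) held a match: Hspd1, Hspe1, Hsph1 and Dnajb6. An ER stress element, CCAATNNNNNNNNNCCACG or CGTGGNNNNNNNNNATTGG, was present in 37 genes (0.137%) and in 3 members, Hspa5, Hsp90b1 and Dnajc3, all among the 12 ER members with a window. Such a match is a description of the letters in the window. The stretches that hold them are shown 5′ to 3′ on the strand of the gene, with the matches in capitals, because these members are described further on.
Hspe1 (chr1:55088008-55088127, forward strand): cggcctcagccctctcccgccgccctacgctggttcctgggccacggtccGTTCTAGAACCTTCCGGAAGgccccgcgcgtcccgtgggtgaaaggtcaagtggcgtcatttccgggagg
Hsph1 (chr5:149636266-149636351, reverse strand): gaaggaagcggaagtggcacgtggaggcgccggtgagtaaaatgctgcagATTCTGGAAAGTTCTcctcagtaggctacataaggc
Hspa5 (chr2:34771975-34772093, forward strand): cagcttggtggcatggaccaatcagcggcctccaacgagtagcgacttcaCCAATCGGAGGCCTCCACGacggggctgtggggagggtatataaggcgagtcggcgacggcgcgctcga
Hsp90b1 (chr10:86705483-86705694, reverse strand): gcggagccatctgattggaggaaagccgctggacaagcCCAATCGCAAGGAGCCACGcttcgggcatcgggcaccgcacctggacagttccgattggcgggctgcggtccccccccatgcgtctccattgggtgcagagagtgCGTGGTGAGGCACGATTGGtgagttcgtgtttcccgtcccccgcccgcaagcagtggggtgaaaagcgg
Dnajc3 (chr14:118937777-118937895, forward strand): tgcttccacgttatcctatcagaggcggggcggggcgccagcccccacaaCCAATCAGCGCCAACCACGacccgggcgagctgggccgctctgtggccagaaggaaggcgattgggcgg
The Hspe1 stretch lies between a RefSeq start of Hspe1 and a RefSeq start of Hspd1, a gene on the opposite strand. Its 20 capital bases hold 2 overlapping matches that windows of both genes share. The window of a further Hspd1 start held no match. In GENCODE M21 the Hspd1 gene extends to position 55088243, past this stretch and past the Hspe1 start at 55088132. Exons of Hspd1 and Hspe1 thus overlap, and reads there cannot be told apart. In Hsph1 the match lies after the start, and in Hsp90b1 there are 2 separate matches in opposite directions.

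Hspa1a and Hspa1b, the strictly stress-inducible Hsp70 genes, are neighbouring copies on chromosome 17. Their windows are shown because both genes set apart 1 library of the dTg group. Capitals mark bases that lie in a stretch of at least 20 bases found in both windows, which covers 294 bases (98.0%) of each window.
Hspa1a (chr17:34972107-34972406, reverse strand): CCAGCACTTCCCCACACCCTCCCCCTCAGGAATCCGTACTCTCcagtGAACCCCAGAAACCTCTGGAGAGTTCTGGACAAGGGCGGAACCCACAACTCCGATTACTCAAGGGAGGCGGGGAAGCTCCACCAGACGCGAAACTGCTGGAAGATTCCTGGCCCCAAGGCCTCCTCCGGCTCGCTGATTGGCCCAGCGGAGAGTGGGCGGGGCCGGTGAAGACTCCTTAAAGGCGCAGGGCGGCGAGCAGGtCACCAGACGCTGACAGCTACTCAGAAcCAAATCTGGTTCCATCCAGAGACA
Hspa1b (chr17:34959189-34959488, reverse strand): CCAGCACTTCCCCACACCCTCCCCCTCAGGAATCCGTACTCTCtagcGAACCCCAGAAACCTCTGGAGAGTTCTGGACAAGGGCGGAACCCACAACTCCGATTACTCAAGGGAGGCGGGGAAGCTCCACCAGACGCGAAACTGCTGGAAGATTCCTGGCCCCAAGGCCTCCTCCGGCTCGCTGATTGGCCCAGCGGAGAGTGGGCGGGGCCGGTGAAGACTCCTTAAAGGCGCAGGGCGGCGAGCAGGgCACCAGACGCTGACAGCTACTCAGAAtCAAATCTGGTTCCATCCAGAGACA
Within the longest annotated transcripts, 58.8% of all 50-base stretches of Hspa1a occurred without a mismatch in Hspa1b. Reads of this pair can therefore be assigned to either copy, and the 2 values are uncertain as separate measurements. Neither window held the heat shock element as spelled above.

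The transgene product miR-211 pairs through its seed, bases 2 to 8, with complementary sites in the untranslated 3′ end of target mRNAs. Its mature form is given with the seed in capitals. It is followed by a site of 8 bases (AAAGGGAA, in capitals) in 3 of the 6 members that hold one.
mmu-miR-211-5p (chr7:64205831-64205852, forward strand): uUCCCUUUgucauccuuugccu
Hspa12a: agagggctctgAAAGGGAAggcttaggacg
Dnaja1: cccaagtcagaAAAGGGAActtcaaccaac
Dnajc14: aaatactttaaAAAGGGAAacattttaaat
Such a site was present in the longest annotated 3′ end of 6 of 66 members (9.09%) and of 1015 of 14359 genes tested (7.07%). The other members with a site were Dnajc13, Dnajc16 and Hspa4l, and Hspa12a held 2. In dTgDox against dTg the printed members had differences in log2(FPKM + 0.5) above 0 (Hspa12a 0.32, Dnaja1 0.11, Dnajc14 0.17). The members not printed had differences below 0 (Dnajc13 -0.25, Dnajc16 -0.08, Hspa4l -0.02). In that comparison the median was 0.05 over the 6 members with a site and 0.04 over the other members. Over all genes with a 3′ end it was -0.03 with a site and -0.0035 without. In dTg against Ct the median difference in log2(FPKM + 0.5) was -0.05 over the 6 members with a site and -0.02 over the other members. Over all genes with a 3′ end it was -0.02 with a site and -0.01 without. None of the 6 was called, at an adjusted p of 1.0 each in limma. The gene Mir211 itself was listed at 0 in 14 of the 16 libraries and at 21.6 and 24.9 FPKM in dTg replicates 2 and 5. PolyA libraries do not hold the mature miRNA, so its level was not measured here.

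Levels of the 66 members spanned more than 3 orders of magnitude. Since FPKM is scaled by transcript length, levels can be set side by side between genes. Hspa8, the constitutive Hsp70, was highest in each of the 15 libraries, at 889 to 1417 FPKM, followed by the cytosolic Hsp90 genes Hsp90ab1 (486 to 662 FPKM) and Hsp90aa1 (374 to 584 FPKM). The ranges of these Hsp90 genes overlapped, and that of Hspa8 lay above both. Next came Dnajc7, a DnaJ protein that binds both Hsp70 and Hsp90, with a mean of 141 FPKM, and Dnaja1, the main partner of Hspa8, with 132 FPKM. Exons of Dnajc7 overlap those of Cnp, a gene on the other strand with a mean of 112 FPKM. Reads of Dnajc7 and Cnp there cannot be told apart. The ER members Hsp90b1 (Grp94) and Hspa5 (BiP) averaged 113 and 93.9 FPKM, and the exchange factor Hsph1 averaged 106 FPKM, with ranges that overlapped among the 3. The mitochondrial members Hspe1, Hspa9 and Hspd1 stood close together at 71.7, 69.9 and 68.7 FPKM. The strictly stress-inducible Hsp70 genes were low: Hspa1a averaged 3.73 FPKM and Hspa1b 4.97 FPKM. Small heat shock proteins among the members were likewise low, with means of 6.47 FPKM for Hspb8, 5.87 FPKM for Hspb1, 3.26 FPKM for Hspb6 and 3.12 FPKM for Hspb3. Cryab, a small heat shock protein outside the member prefixes, averaged 49.3 FPKM. Exons of Hspb6 overlap those of Lin37 (mean 29.1 FPKM), and exons of Hspa1a those of Gm20481 (mean 5.24 FPKM). Both overlapping genes are on the other strand, so the low values of Hspb6 and Hspa1a can include their reads.

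**Figure D1:**
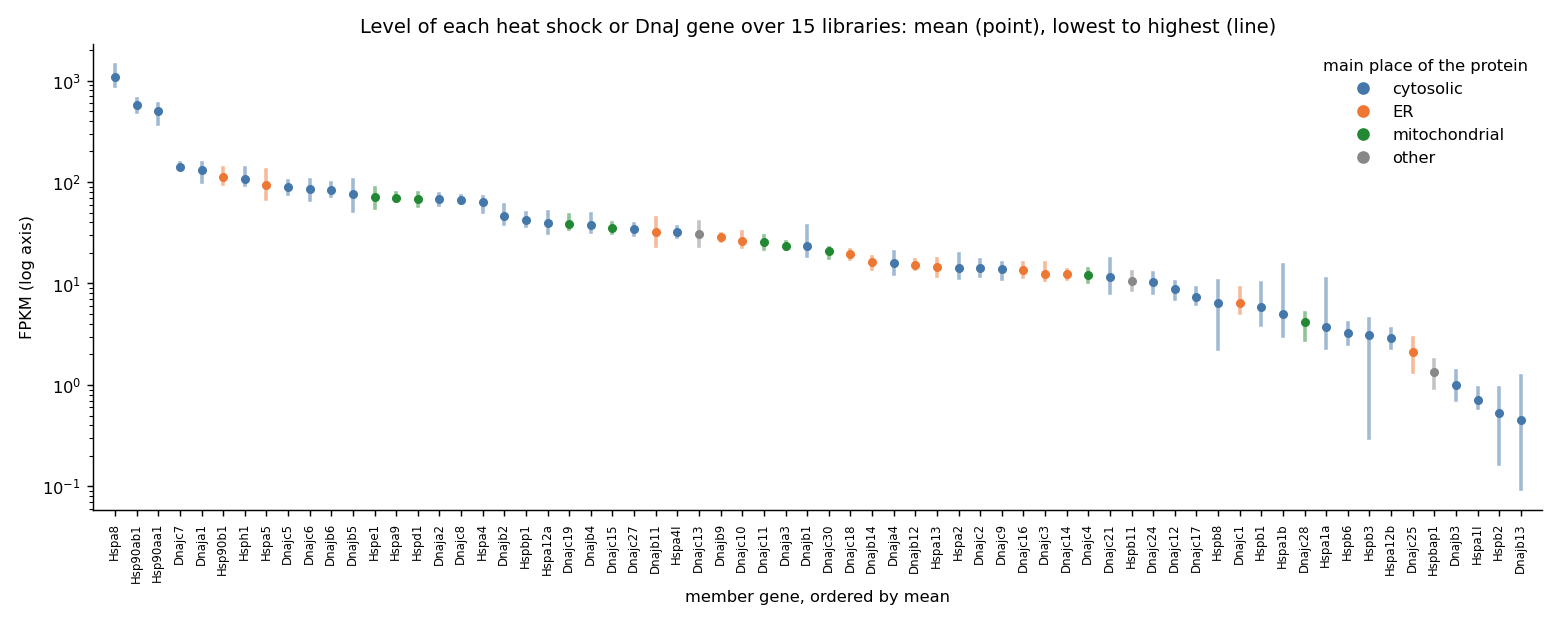
FPKM (log axis) of each of the 66 members over the 15 libraries used, ordered by mean; points are means, lines run from the lowest to the highest library, and colours give the main place of the protein. Hspa8, Hsp90ab1 and Hsp90aa1 stand above the rest, and the longest lines belong to low genes such as Hspb3, Hspb8, Hspa1a and Hspa1b.

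Summed over all members, the set made up 4418 ± 272 FPKM (SD, n = 6) in Ct, 4232 ± 400 FPKM (SD, n = 6) in dTg and 4124 ± 87.3 FPKM (SD, n = 3) in dTgDox. These sums overlapped between the 3 groups. Hspa8 and the cytosolic Hsp90 genes alone gave 51.3% of the sum in Ct, 50.6% in dTg and 48.6% in dTgDox. The cytosolic class held 81.2 ± 0.882% (SD, n = 6), 81.1 ± 1.10% (SD, n = 6) and 79.4 ± 0.206% (SD, n = 3) in that order, so that the 3 dTgDox libraries (79.2%, 79.6% and 79.4%) lay below the lowest value of the other groups, 79.7% in Ct replicate 2. The ER class summed to 415 ± 36.8 FPKM in Ct, 387 ± 24.6 FPKM in dTg and 428 ± 33.1 FPKM in dTgDox (SD, n = 6, 6 and 3). The mitochondrial class summed to 371 ± 9.36 FPKM, 364 ± 17.2 FPKM and 381 ± 7.52 FPKM (SD, n = 6, 6 and 3). These sums are descriptions and were not tested.

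**Figure D2:**
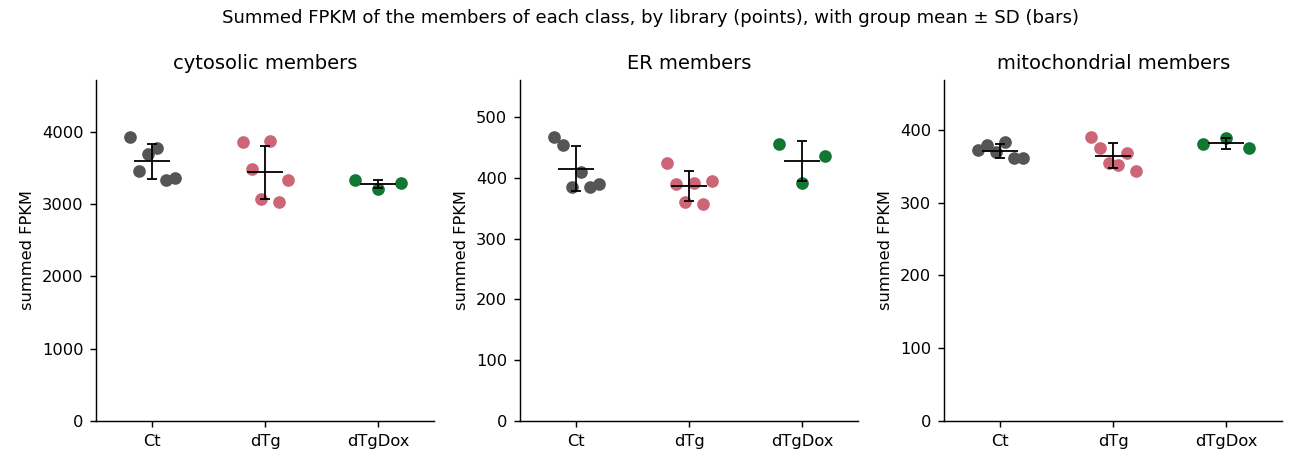
Summed FPKM of the cytosolic, ER and mitochondrial members in each library (points), with the group mean and SD (bars); axes start at 0. The groups overlap in the ER and mitochondrial classes; in the cytosolic class the highest dTgDox library (3331 FPKM) lies just below the lowest Ct library (3332 FPKM), with means of 3588 FPKM in Ct, 3437 FPKM in dTg and 3275 FPKM in dTgDox.

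The libraries themselves differed in tissue content, which touches each comparison that involves dTgDox. Rough depths were 20300000 to 28200000 reads and 15762 to 16085 genes per library had 1 FPKM or more. The cortical excitatory markers Slc17a7 and Camk2a were high in the 15 libraries used (400 to 587 FPKM and 594 to 1104 FPKM). In dTgDox, however, 6 of 7 hippocampal CA markers were higher than in dTg and in Ct. Their summed level was 232 to 258 FPKM in dTgDox, 45.3 to 70.5 FPKM in Ct and 50.8 to 71.5 FPKM in dTg. Markers of dentate granule cells were higher for 5 of 7 genes (summed 114 to 134 FPKM against 67.7 to 105 FPKM). Astrocyte markers were higher for 3 of 5 and lower for 1 (summed 420 to 585 FPKM against 252 to 346 FPKM), and oligodendrocyte markers summed to 2502 to 3772 FPKM against 877 to 2423 FPKM. Excitatory cortex markers were lower for 3 of 7 against dTg and for 4 of 7 against Ct, and interneuron markers for 2 of 6. Of all 12 marker lists only Gabra6, a cerebellar gene, was at 0 in some libraries. Sums of choroid plexus markers ran from 26.1 to 1971 FPKM within dTgDox, and olfactory bulb and striatal markers varied widely within Ct (5.89 to 202 FPKM and 79.3 to 603 FPKM). The part of these differences in the results below was not tested. In bulk tissue, fewer cells of a type and less RNA per cell cannot be told apart.

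The comparison of dTg with Ct asks what excess miR-211 did to the chaperones, and 0 of 66 members were called in it. Over all genes tested limma called 0 of 19186 (0%) at a Benjamini-Hochberg adjusted p of 0.05, the smallest adjusted p being 0.317, while 616 genes had an unadjusted p at or below 0.05. No member was among those 616. The members' differences in log2(FPKM + 0.5) lay between -0.26 and 0.24 with a median of -0.02, beside a median of -0.0044 over all genes. Their median size, ignoring sign, was 0.06, beside 0.07 over all genes.

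The smallest unadjusted p-values belonged to Dnajb9, an ER DnaJ protein that partners Hspa5, to Dnajc7 and to Hspa9, the mitochondrial Hsp70. Dnajb9 ranged from 26.6 to 30.9 FPKM in Ct (median 30.3) and from 26.5 to 29.6 FPKM in dTg (median 27.3), a log2 difference of -0.10 ± 0.05 (SE, limma adjusted p = 1.0). Dnajc7 differed by -0.08 ± 0.04 (SE) and Hspa9 by -0.09 ± 0.04 (SE), both with an adjusted p of 1.0. The groups overlapped for all 3. By class, 2 of 14 ER members, 4 of 10 mitochondrial members and 16 of 39 cytosolic members had a difference above 0. The largest ER value, that of Hspa5, was -0.26, with 79.6 to 131 FPKM in Ct (median 87.2) and 67.9 to 111 FPKM in dTg (median 79.3). In Hspa5 the Ct replicates 1 and 2 (129 and 131 FPKM) and dTg replicate 2 (111 FPKM) stood above the other 9 libraries, which ended at 88.5 FPKM.

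The comparison of dTgDox with dTg asks what 4 days of doxycycline did in mice with both transgenes. Hspb3, a small heat shock protein best known from muscle, was lower to 0.23 of its dTg level on the log2(FPKM + 0.5) scale. The Hsp70 genes Hspa2 and Hspa12a, the DnaJ gene Dnaja4 and the ER gene Dnajc3 rose modestly, by a factor of 1.25 to 1.35 on the same scale, and Hspbap1, which encodes a protein that binds the small heat shock protein Hspb1, fell. In total 6 of 66 members (9.09%) were called, 4 higher and 2 lower, beside 3595 of 19186 genes (18.7%) called over the whole table, 9.59% higher and 9.15% lower. The share among members was thus below the background. The median difference of the members was 0.04, beside -0.01 over all genes, and 65 of 66 members differed by less than 0.5.

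Hspb3 (ENSMUSG00000051456, chr13:113662896-113663676 in GRCm38) ranged from 3.10 to 4.47 FPKM in Ct (median 3.48) and from 3.10 to 4.40 FPKM in dTg (median 3.84), and its 3 dTgDox values were 0.842, 0.300 and 0.367 FPKM. Each dTgDox library lay below each of the 12 others. The log2 difference was -2.13 ± 0.17 (SE, limma adjusted p = 9.21e-07) against dTg and -2.11 ± 0.17 (SE, limma adjusted p = 1.04e-06) against Ct. Both calls held in all 27 alternative fits, where the values ran from -2.79 to -1.69 and from -2.76 to -1.67. The cerebellum-like library also had a low value, 0.793 FPKM. Hspb3 was the only small heat shock protein called: Hspb1 differed by -0.28 ± 0.24 (SE) and Hspb6 by -0.21 ± 0.13 (SE) against dTg, with limma adjusted p-values of 0.454 and 0.296.

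Hspa2, an Hsp70 that has its main known role in the testis and is also made in brain, was measured at 11.5 to 16.4 FPKM in Ct (median 13.8), 11.3 to 14.7 FPKM in dTg (median 13.1) and 19.5, 16.9 and 17.3 FPKM in dTgDox. All 3 dTgDox values exceeded the highest of the other groups. The log2 difference was 0.43 ± 0.10 (SE, limma adjusted p = 0.00746) against dTg and 0.38 ± 0.10 (SE, limma adjusted p = 0.0143) against Ct. Without dTgDox replicate 1 it was not called against either group (limma adjusted p = 0.0532 and 0.0856). Both calls were also lost with the replicate number as a block (limma adjusted p = 0.0786 and 0.0589). The same held with the cerebellum-like library added to dTg (limma adjusted p = 0.113 and 0.352).

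Dnaja4, a cytosolic partner of Hsp70, had 14.1 to 18.1 FPKM in Ct (median 15.7), 12.3 to 17.1 FPKM in dTg (median 14.9) and 19.9, 17.4 and 20.5 FPKM in dTgDox. The dTgDox values were above all dTg values and overlapped with the highest Ct library. It rose by 0.36 ± 0.09 against dTg (SE, limma adjusted p = 0.015) and by 0.29 ± 0.09 against Ct (SE, limma adjusted p = 0.0423). Without dTgDox replicate 1 or 3 the first call was lost (adjusted p of 0.0702 to 0.0807), and leaving out any 1 of 10 libraries (Ct replicates 2 to 6, dTg replicates 2, 6 and 7, dTgDox replicates 1 and 3) ended the second, with adjusted p-values of 0.0517 to 0.169. Its exons overlap those of Wdr61, a gene on the other strand with a mean of 32.1 FPKM.

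Dnajc3 (p58IPK), an ER DnaJ protein that serves Hspa5 and whose promoter holds an ER stress element, was at 10.9 to 14.2 FPKM in Ct (median 11.7), at 10.7 to 11.9 FPKM in dTg (median 11.7) and at 15.99, 12.8 and 15.8 FPKM in dTgDox. The dTgDox values lay above all dTg values, while dTgDox replicate 2 fell within the Ct range. It rose by 0.34 ± 0.09 against dTg (SE, limma adjusted p = 0.0159) and by 0.27 ± 0.09 against Ct (SE, limma adjusted p = 0.0453). The first call was lost without dTgDox replicate 1 or 3 (adjusted p of 0.0868 to 0.0939). The second was lost without any 1 of 11 libraries (Ct replicates 3 to 6, dTg replicates 2, 3, 4, 6 and 7, dTgDox replicates 1 and 3; adjusted p of 0.0527 to 0.195).

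Hspa12a, a distant Hsp70 relative that is abundant in brain, had 31.5 to 43.3 FPKM in Ct (median 37.3), 32.6 to 42.5 FPKM in dTg (median 36.8) and 47.9, 41.1 and 50.8 FPKM in dTgDox. One dTgDox library fell within the range of the other groups. The log2 differences were 0.32 ± 0.10 against dTg and 0.31 ± 0.10 against Ct (SE, limma adjusted p = 0.0439 and 0.0496). These calls were at the edge of the threshold. Leaving out any 1 of 9 libraries ended the first (Ct replicates 4 to 6, dTg replicates 2, 3, 4 and 6, dTgDox replicates 1 and 3; adjusted p of 0.0528 to 0.195) and any 1 of 10 the second (Ct replicates 1, 4, 5 and 6, dTg replicates 2, 3, 5 and 6, dTgDox replicates 1 and 3; adjusted p of 0.0513 to 0.21).

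Hspbap1 was at 1.12 to 1.77 FPKM in Ct (median 1.40), at 1.26 to 1.64 FPKM in dTg (median 1.46) and at 0.934, 1.07 and 1.10 FPKM in dTgDox. All 3 dTgDox values were below the 12 others. It fell by 0.34 ± 0.11 on the log2 scale against dTg (SE, limma adjusted p = 0.0427). Against Ct the difference was -0.31 ± 0.11 (SE, limma adjusted p = 0.0642; 0.0352 without Ct replicate 2). The call against dTg was lost without any 1 of 10 libraries (Ct replicates 4 to 6, dTg replicates 2, 3, 4 and 7, dTgDox replicates 1 to 3; adjusted p of 0.0514 to 0.168).

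**Figure D3:**
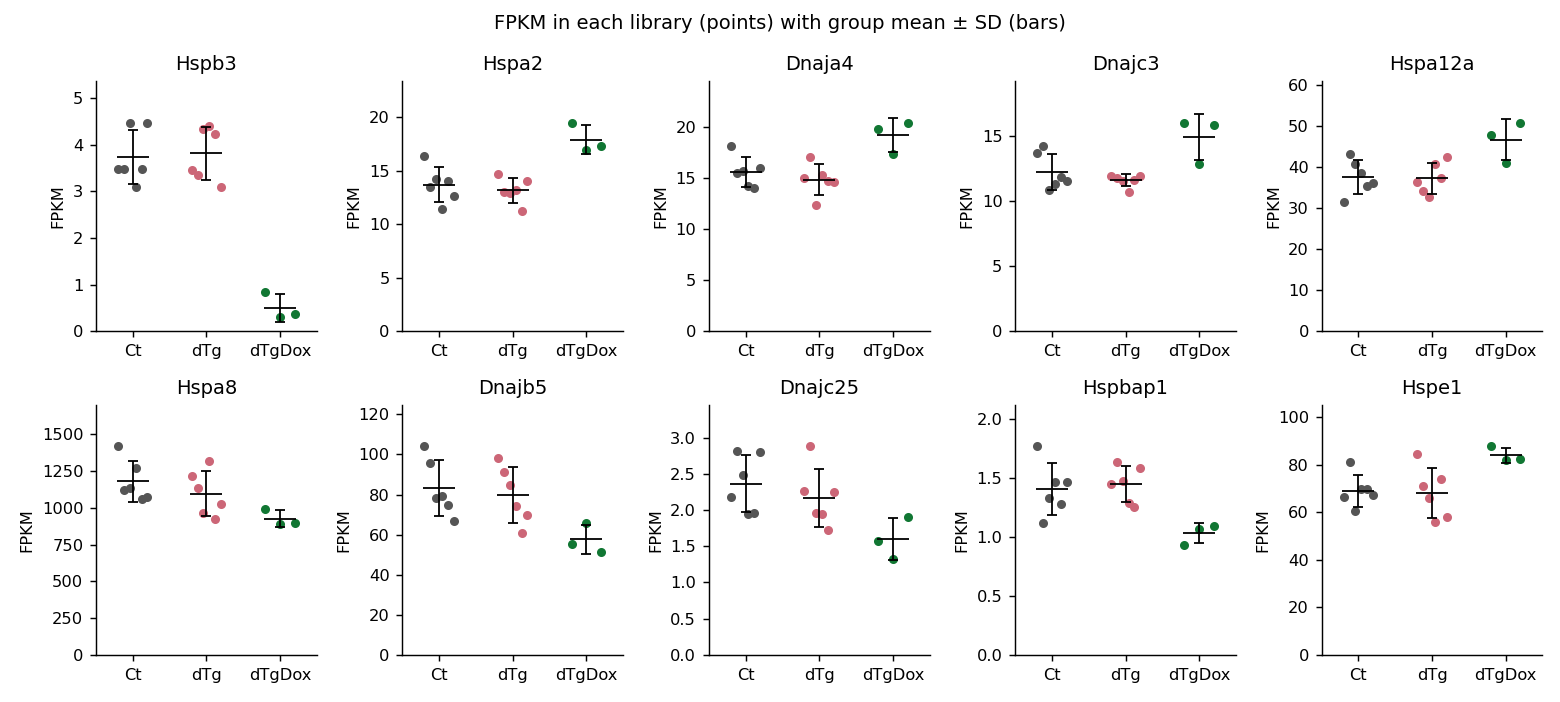
FPKM of 10 members in each library (points) with the group mean and SD (bars), on axes that start at 0. The 3 dTgDox points of Hspb3 lie between 0.300 and 0.842 FPKM, below all Ct and dTg points, and those of Hspa2 lie at 16.9 FPKM or more, above them.

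The count in dTgDox against dTg rested on single libraries: it was 1 of 66 without dTgDox replicate 1 and 2 without dTgDox replicate 3, against 3595 genes in all falling to 2133 and 2215. With the cerebellum-like library added to dTg it was 2, Hspb3 and Dnaja4. With the replicate number as a block it was 2, Hspb3 and Dnajb5, and none of the members called higher kept its call. Of the further members, Hspe1 showed the largest mitochondrial difference, 0.31 ± 0.11 (SE, limma adjusted p = 0.0684; 0.0198 without dTg replicate 2). Its values were 60.3 to 81.0 FPKM in Ct (median 68.4), 56.0 to 84.3 FPKM in dTg (median 68.4) and 87.7, 81.9 and 82.4 FPKM in dTgDox. The partner that shares its promoter region, Hspd1, differed by 0.10 ± 0.07 (SE, limma adjusted p = 0.401). None of the 10 mitochondrial members was called in either dTgDox comparison. Among the ER members Hspa5 differed by 0.37 ± 0.18 and Hsp90b1 by 0.12 ± 0.10 (SE), with limma adjusted p-values of 0.175 and 0.46. Of the 13 heat-inducible members (textbook Hsf1 targets) none was called here, Hspa1a and Hspa1b differing by 0.07 ± 0.36 and 0.22 ± 0.42 (SE). Hspb8, a small heat shock protein that acts with Bag3, read 10.5, 2.27 and 10.2 FPKM in dTgDox against 5.35 to 6.91 FPKM in dTg. Its log2 difference was 0.06 ± 0.33 (SE, limma adjusted p = 0.931), and without dTgDox replicate 2 it was 0.71 with an adjusted p of 0.00727 (0.72 and 0.00709 against Ct).

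The comparison of dTgDox with Ct sets the treated mice beside the driver-only mice, and it shares the 3 dTgDox libraries with the comparison above. Hspb3, Hspa2, Dnaja4, Dnajc3 and Hspa12a were called in the same direction in both. A further 3 members were called lower against Ct: Hspa8, the most abundant member, Dnajb5, a DnaJ protein of the cytosol and nucleus, and Dnajc25, a membrane DnaJ protein classed as ER. Over the set 8 of 66 members (12.1%) were called, 4 higher and 4 lower, beside 3757 of 19186 genes (19.6%), 9.81% higher and 9.77% lower. The members' median difference was -0.01 and their median size 0.11, beside -0.01 and 0.19 over all genes. The count was 1 without dTgDox replicate 1 and 3 without dTgDox replicate 3. It was 4 or 5 without any 1 of Ct replicates 3, 4 and 5 and dTg replicates 2, 3, 6 and 7. With the cerebellum-like library added to dTg it was 1, Hspb3. With the replicate number as a block it was 4 (Hspb3, Dnajb5, Hspa8 and Dnajc6), and none of the members called higher kept its call.

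Hspa8 had 1060 to 1417 FPKM in Ct (median 1127), 924 to 1321 FPKM in dTg (median 1080) and 995, 889 and 894 FPKM in dTgDox. The dTgDox libraries lay below all 6 Ct libraries and overlapped with dTg. The log2 difference was -0.34 ± 0.11 against Ct (SE, limma adjusted p = 0.046) and -0.23 ± 0.11 against dTg (SE, limma adjusted p = 0.171). Leaving out any 1 of 9 libraries ended the call (Ct replicates 1 to 4, dTg replicates 3 and 7, dTgDox replicates 1 to 3; adjusted p of 0.0531 to 0.146). The synaptic partners of Hspa8 had differences of the same sign that were not called. Dnajc6 (auxilin) had a mean of 91.4 FPKM in Ct and 73.2 FPKM in dTgDox, a difference of -0.31 ± 0.11 (SE, limma adjusted p = 0.0521). Without Ct replicate 6 or dTg replicate 4 or 5 it was called (adjusted p of 0.0223, 0.0425 and 0.037). Dnajc5 (cysteine string protein) had 93.5 and 82.0 FPKM, a difference of -0.19 ± 0.08 (SE, limma adjusted p = 0.117).

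Dnajb5 was measured at 66.8 to 104 FPKM in Ct (median 78.9), 60.7 to 98.3 FPKM in dTg (median 79.4) and 55.5, 65.9 and 51.6 FPKM in dTgDox. The dTgDox values were below all Ct values. The difference was -0.52 ± 0.15 against Ct (SE, limma adjusted p = 0.029) and -0.46 ± 0.15 against dTg (SE, limma adjusted p = 0.0517). The value against dTg was called without Ct replicate 1, Ct replicate 6 or dTg replicate 6 (adjusted p of 0.04, 0.0461 and 0.0204). Without Ct replicate 2 or without dTgDox replicate 1 or 3 the call against Ct was lost (adjusted p of 0.0526 to 0.131). Dnajc25 had 1.94 to 2.81 FPKM in Ct (median 2.33), 1.72 to 2.88 FPKM in dTg (median 2.10) and 1.57, 1.33 and 1.90 FPKM in dTgDox. It fell by 0.44 ± 0.15 on the log2 scale against Ct (SE, limma adjusted p = 0.0437), with dTgDox just below Ct. Leaving out any 1 of 8 libraries ended that call (Ct replicates 1, 2, 3 and 6, dTg replicates 2 and 7, dTgDox replicates 1 and 2; adjusted p of 0.0527 to 0.18), and its exons overlap those of the read-through gene Gm20503 on the same strand.

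**Figure D4:**
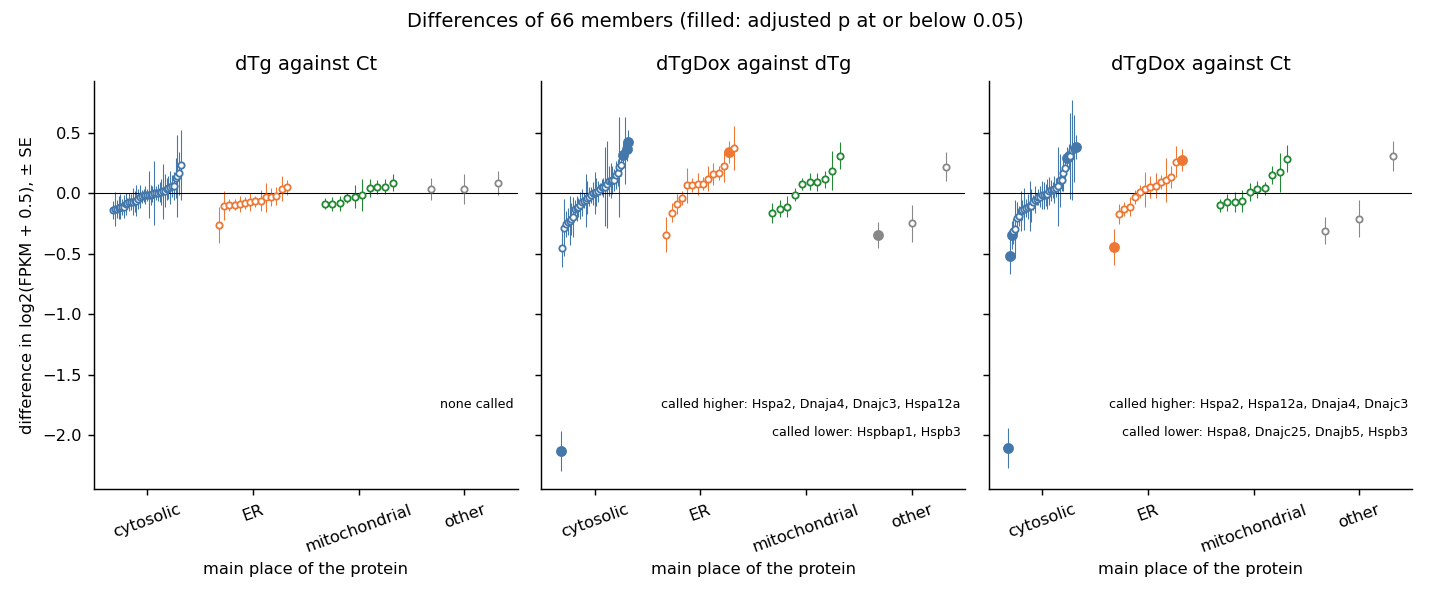
Difference in log2(FPKM + 0.5) with its SE for each of the 66 members in the 3 comparisons, grouped by the main place of the protein; filled points have a limma adjusted p at or below 0.05. No point is filled in dTg against Ct, and in both dTgDox comparisons Hspb3 lies near -2.1, far below the other members.

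Variation within groups was small for most members. The pooled SD of log2(FPKM + 0.5) within groups had a median of 0.15 over members and 0.18 over all genes tested. Among genes with a mean log2 level of 2 or more, the medians were 0.13 over 56 members and 0.15 over 12214 genes. The 5 members with the largest spread were Hspa1b, Hspa1a, Hspb8, Dnajb13 and Hspb1. Hspa1b ranged from 3.01 to 6.66 FPKM in Ct (median 3.36), and in dTg it read 15.3 FPKM in replicate 2 and 3.08 to 3.81 FPKM in the other libraries. Hspa1a showed the same order, with 2.29 to 4.65 FPKM in Ct (median 2.70), 10.99 FPKM in dTg replicate 2 and 2.52 to 3.51 FPKM in the rest of dTg. Hspb1 was highest in Ct replicates 1 and 2 and dTg replicate 2 (8.44, 10.01 and 8.46 FPKM, against 4.32 to 6.52 FPKM in the other 9 libraries).

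Most heat-inducible members lay above the mean of their group in dTg replicate 2. Among the 12 Ct and dTg libraries, dTg replicate 2 ranked first in 9 of the 13 heat-inducible members and in the top 3 in 11 of them. Its median deviation from the dTg mean was 0.32 in log2(FPKM + 0.5), against -0.19 to 0.09 in the other 11 libraries. The single deviations were 1.66 for Hspa1b, 1.47 for Hspa1a, 0.62 for Dnajb1, the DnaJ partner of inducible Hsp70, and 0.40 for Hsph1. Smaller ones were found for Dnajb4 (0.33), Hspe1 (0.32), Dnaja1 (0.30) and Hspd1 (0.24). Hspa4l, an exchange factor, did not follow (-0.03). Dnajb1 read 37.0 FPKM in dTg replicate 2 and 18.9 to 25.2 FPKM in the rest of dTg, and Hsph1 read 138 FPKM against 92.6 to 122 FPKM. The cold-inducible RNA-binding protein gene Cirbp was lowest in the same library, at 53.9 FPKM against 60.4 to 77.1 FPKM in the other 11. The other cold-inducible gene, Rbm3, was not low there, at 115 FPKM within a range of 103 to 140 FPKM over the 12 libraries. In the dTgDox libraries, outside these 12, Cirbp read 51.8, 67.2 and 57.2 FPKM, with Hsph1 at 105, 102 and 110 FPKM. The values of dTg replicate 2 describe 1 library, which Hspa1a and Hspa1b had already set apart, and carry no test. Hspa1a and Hspa1b share reads, and both count among the 9 members in which it ranked first. How often this library ranked first over all genes was not computed, so the 9 of 13 has no background beside it. Among the 10 heat-inducible members with a promoter window, 3 (Hspd1, Hspe1 and Hsph1) held the heat shock element as spelled here.

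**Figure D5:**
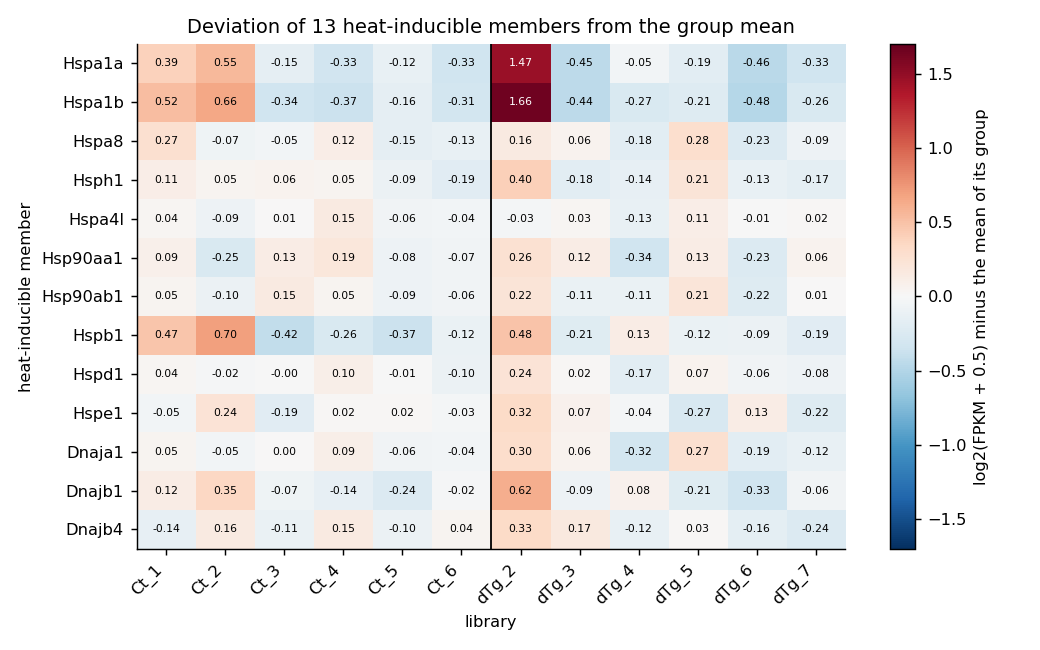
Deviation of log2(FPKM + 0.5) of the 13 heat-inducible members from the mean of their own group, in the 6 Ct and 6 dTg libraries (columns), printed in each cell. The column of dTg replicate 2 is positive for 12 members and reaches 1.66 for Hspa1b.

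Pairs of genes were compared across the same 12 libraries after centring on group means, with 9 pairs and two-sided permutation tests within groups. Only the tandem copies Hspa1a and Hspa1b passed Benjamini-Hochberg adjustment over the 9 pairs (Pearson r = 0.99, permutation p = 9e-05, adjusted p = 0.00081; Spearman rho = 0.86, permutation p = 9e-04, adjusted p = 0.0081). The relation held without the 2 libraries farthest from the median (r = 0.91), with the reservation on shared reads given above. Hsph1 and Hspa8, an exchange factor and its Hsp70, had r = 0.71 (permutation p = 0.018, adjusted p = 0.053; rho = 0.66, permutation p = 0.04, adjusted p = 0.097), and r = 0.53 without dTg replicates 2 and 5. Hsph1 and Cirbp had r = -0.72 (permutation p = 0.015, adjusted p = 0.053; rho = -0.55, permutation p = 0.073, adjusted p = 0.11). That value fell to -0.26 without dTg replicates 2 and 5, so the relation rested on those libraries. The ER pair Hspa5 and Hsp90b1 had r = 0.65 (permutation p = 0.027, adjusted p = 0.06; rho = 0.69, permutation p = 0.018, adjusted p = 0.081), and 0.76 without Ct replicates 1 and 2. Hspd1 and Hspe1, which share their promoter region, had r = 0.36 (permutation p = 0.36, adjusted p = 0.36; rho = 0.17, permutation p = 0.64, adjusted p = 0.64), and -0.13 without dTg replicates 2 and 4. The remaining 4 pairs had r of 0.49 to 0.64 with adjusted permutation p-values of 0.084 to 0.12, and rho of 0.22 to 0.62 with adjusted permutation p-values of 0.097 to 0.58. Without the 2 farthest libraries r fell from 0.64 to 0.16 for Hspa5 with Dnajb11 (without Ct replicates 1 and 2). It fell from 0.54 to 0.14 for Hsph1 with Hsp90aa1 and from 0.58 to 0.30 for Hsph1 with Dnajb1 (both without dTg replicates 2 and 5), so these relations rested on those libraries. For Hspa9 with Hspd1 it was 0.49 and then 0.53.

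Genes that work with the members were taken from lists of textbook partners, and the counts below stand beside 18.7% of all genes called against dTg (9.59% higher, 9.15% lower) and 19.6% against Ct. Of 42 co-chaperones of Hsp70 and Hsp90, 4 were higher and 4 lower in dTgDox against dTg, and the counts against Ct were the same, a share close to that of all genes. Fkbp5, an Hsp90 co-chaperone of steroid receptors, had 8.29 to 11.2 FPKM in Ct, 5.81 to 8.96 FPKM in dTg and 16.9 to 18.6 FPKM in dTgDox. It rose by 1.19 ± 0.13 against dTg (SE, limma adjusted p = 2.63e-05) and by 0.81 ± 0.13 against Ct (SE, limma adjusted p = 6.06e-04). Sgtb, a co-chaperone with tetratricopeptide repeats, fell by 0.73 ± 0.13 against dTg on the log2 scale (SE, limma adjusted p = 0.00108), from a mean of 60.1 to 35.9 FPKM. Bag3, which links Hsp70 to Hspb8, rose from a mean of 2.14 to 3.37 FPKM (0.57 ± 0.15, SE, limma adjusted p = 0.0154), and this call was lost without dTgDox replicate 1 (adjusted p = 0.0624). Against Ct it was lost without any 1 of the dTgDox libraries (adjusted p of 0.0673 to 0.087).

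The chaperonin, ER and mitochondrial lists likewise had shares near or below that of all genes. Of 16 genes of the cytosolic chaperonin TRiC and of prefoldin, 3 were higher and 0 lower in dTgDox against both groups: Cct5 (0.41 ± 0.07 against dTg), Vbp1 (0.52 ± 0.07) and Pfdn5 (0.25 ± 0.07, all SE). Their limma adjusted p-values were 0.00121, 1.53e-04 and 0.0196, and the call of Pfdn5 was lost without dTgDox replicate 2 or 3 (adjusted p of 0.058 to 0.0934) and, against Ct, without dTgDox replicate 3 (adjusted p = 0.0503). Of 39 genes of ER folding and ER stress, 3 were higher against dTg (Derl1, Sec61b and Ppib) and 1 lower, the ER stress sensor Atf6. The call of Ppib was lost without dTgDox replicate 1 or 3 (adjusted p of 0.0555 to 0.114), and that of Atf6 without dTg replicate 7 or any 1 dTgDox library (adjusted p of 0.0592 to 0.103). Against Ct, Herpud1, a gene of ER-associated degradation, was lower as well (-0.34 ± 0.08, SE, limma adjusted p = 0.00554). The ER exchange factor Hyou1 differed by -0.05 ± 0.10 (SE, limma adjusted p = 0.767) against dTg. Of 20 genes of mitochondrial folding and proteolysis, which include 3 members, Clpp and Phb were higher and Spg7 lower against dTg, the latter lost without dTgDox replicate 1 or 3 (adjusted p of 0.056 to 0.111), while the mitochondrial Hsp90 gene Trap1 differed by 0.00 ± 0.06 (SE, limma adjusted p = 0.976). Among 5 tested heat shock factors and their binding proteins, Hsf1 differed by -0.01 ± 0.12 (SE, limma adjusted p = 0.954) and the low gene Hsbp1l1 fell, a call lost without any 1 dTgDox library (adjusted p of 0.0543 to 0.116). Among the heat-inducible genes, Bag3 was higher in both dTgDox comparisons and Hspa8 was lower against Ct. The cold-inducible gene Rbm3 fell against Ct by 0.39 ± 0.11 on the log2 scale (SE, limma adjusted p = 0.0195). That call was lost without dTgDox replicate 1 (limma adjusted p = 0.143). Cirbp differed from Ct by -0.27 and was not called, though it was called without Ct replicate 2 (limma adjusted p = 0.0365). None of these lists had a called gene in dTg against Ct, and the 2 tested crystallin genes, among them Cryab, had none in any comparison.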

How the data were processed

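PolyA RNA of mouse frontal cortex was sequenced from 1 end on a NextSeq after NEBNext library preparation, per the labels' protocols. Per the submitters' processing notes, TopHat2 and DESeq were used, with no version. The genome build is not given in the sources used here, nor are the annotation and the quantifier. The deposited files give 1 FPKM value for each of 46073 Ensembl genes, with only a library name per the file headers; the unit was taken from the values. Whole reads could not be recovered, so depth is known roughly (20300000 to 28200000 reads, relative depth 0.868 to 1.20) and no counting intervals were computed. Symbols were taken from GENCODE M21 (GRCm38), which matched 45225 identifiers and not 848; coordinates are those of that annotation. The labels do not assign libraries to flow cells, so no batch could be tested.

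Genes with 0.5 FPKM or more in 3 or more of 16 libraries (19186) were fitted on log2(FPKM + 0.5) with limma 3.58.1 in R 4.3.3, 1 mean per group over 15 libraries, with a trend and robust moderation. Tests were two-sided with Benjamini-Hochberg adjustment over all genes tested at 0.05. The added 0.5 pulls differences of low genes toward 0. The fit was tested on simulated data. Values are FPKM, SE is that of the fit and SD is over libraries. Pairs were tested with 100000 permutations. The strand of counting is not given, so reads of a gene and of an overlapping gene on the other strand cannot be told apart; exons of 26 members overlap another gene, 19 of them 1 on the other strand at 0.5 FPKM or more. Promoters and the miRNA are from RefSeq (GRCm38.p6), 3′ ends from GENCODE M21.

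The members and lists were chosen with earlier results of these data known, so counts support nothing beyond themselves. Named members were those called, a set of textbook members, the 5 with the largest spread, and the 3 smallest p-values where none was called. The miR-211 sites and the copies of Hspa1a were looked at after the values had been seen. Alternatives changed the pseudocount, filter, scaling, weights, block or libraries, 1 at a time. The result for 1 gene of the heat-inducible list is not reported here.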

Additional observations from a re-analysis of the deposited data

Results flagged for a closer look

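Each named member was examined in the 6 Ct and the 6 dTg libraries for a single library that stood apart, meaning that the gap between the highest or lowest library and its neighbour took up more than 0.625 of the range of the group. Of 76 such groups 5 were picked out in this way, and chance does so in about 1 of 20. Of these, 4 concerned dTg replicate 2, which was the highest library of its group for Dnajb1 at 37.0 FPKM (next 25.2), Hspa1a at 10.99 FPKM (next 3.51), Hspa1b at 15.3 FPKM (next 3.81) and Hspa5 at 111 FPKM (next 82.5). The fifth was Dnajc3 in dTg replicate 5, the lowest of its group at 10.7 FPKM (next 11.5). In the cerebellum-like library kept out of the main comparisons, Hspb6, a small heat shock protein, read 7.40 FPKM, more than 1.5 times the highest Ct library. In that library 12 of 66 members lay above the range of the 15 others, 19 below it and 35 within it.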

How the results depend on the processing

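Fits were repeated with 27 alternatives. The number of genes changed in dTg against Ct was 0, and 1 with a pseudocount of 0.1; leave-one-out fits gave 0 to 1, the 1 without dTg replicate 3 or 6, and members changed was 0 in all. For dTgDox against dTg (3595 genes, 6 members), adding dTg replicate 1 gave 1537 genes and 2 members, and leave-one-out fits 2133 to 3703 genes and 1 to 7 members. For dTgDox against Ct (3757 genes, 8 members), adding dTg replicate 1 gave 1504 genes and 1 member, and leave-one-out fits 2287 to 3871 genes and 1 to 8 members. Members changed against Ct was also 3 with no filter on low values, 5 without trend and robust moderation, and 5 with only the 2 groups compared. With the replicate number as a replicate block, 1558 genes and 2 members changed against dTg and 2382 genes and 4 members against Ct. All of these members were lower. Deviations of same-numbered libraries from their group means had correlations of -0.18 to 0.03 for Ct with dTg. The values were 0.0014 and 0.08 for dTg with dTgDox, and -0.02 to 0.04 for Ct with dTgDox. Libraries of unlike number were not compared in this way, so whether the number marks a shared litter, day or batch was not tested. Without Hspa8 and Hsp90ab1 the cytosolic sum was 1834 FPKM in Ct, 1769 FPKM in dTg and 1780 FPKM in dTgDox. In Ct alone the correlation of Hspa1a with Hspa1b was 0.98 with an adjusted exact permutation p of 0.075. The cause of these changes was not tested, and leave-one-out fits also hold fewer libraries. Of 50 called differences of named genes none changed direction in 1349 refits, and 207 refits lost the call. Among uncalled differences 40 of 3910 refits made a call, in the same direction, and 215 changed sign without one. Median-of-ratios or quantile scaling moved the median of all genes by less than 0.1. The 3 dTgDox libraries limit the precision of both dTgDox comparisons, and depth is known only roughly.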
